A study of Mus musculus with 12 samples.

Results

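Auditory nerves of adult CBA/CaJ mice were compared 7 days after ouabain was placed on the round window of the right ear. The comparison used the 3 Affymetrix mouse GeneChip arrays of ouabain-treated nerves and the 3 arrays of control nerves that the sample titles assign to 7 days, which are 6 of the 12 arrays of the adult nerve experiment. All mice were CBA/CaJ, of both sexes, 8 to 12 weeks old at surgery, and no engineered allele is named for them. Treated ears received about 10 µl of 3 mM ouabain, renewed about every 10 min over 60 min. Control nerves were the left ears of operated animals and were left without surgery, so the effects of the operation and of the drug cannot be told apart. Each array held RNA pooled from 2 preparations of the modiolus, the bony core of the cochlea, after the shell, the lateral wall and most of the sensory epithelium had been dissected away. Neither the labels nor the methods say which animals entered a pool, and p-values measure the spread between these pools.

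Ouabain blocks the sodium potassium pump. On the round window it kills most type I spiral ganglion neurons, the cells that carry signals from the inner hair cells to the brain, and largely spares the hair cells and the Schwann cells. Schwann cells that have lost their axon are known to leave the myelinating state, to switch on growth factors and genes of immature glia, and, with incoming macrophages, to clear myelin. Matrix and blood vessels are remodelled over the days that follow.

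Expression values were log2 values made by robust multi-array average (RMA), in which 1 unit is a doubling. Of 45037 probe sets tested, 34945 carried exactly 1 gene symbol and stood for 18193 genes, each read from its brightest probe set. A gene was called higher or lower when the Benjamini-Hochberg adjusted p of limma was under 0.05 over all probe sets and the fold change was above 1.5. The array medians lay between 6.01 and 6.09, and the lower quartiles between 4.26 and 4.38 over the 12 arrays. Pearson correlations were 0.992 to 0.994 among the controls of 7 days, 0.993 to 0.994 among the treated nerves, and 0.966 to 0.980 between the groups. In the controls the neuronal genes Nefl and Snap25 had mean log2 values of 13.55 and 13.27, and the Schwann cell genes Pmp22 and Sox10 had 13.65 and 11.09, all above the upper quartiles of the arrays. The muscle gene Myh4 had 4.06. Of the hair cell genes, the factor Pou4f3 had 5.04, while Myo7a had 6.84 and Otof 8.77. Genes of bone and of marrow were also present, with control means of 10.58 for Ibsp, a bone sialoprotein, and 11.98 for S100a8, a calcium-binding protein of neutrophils. Markers were named after their values were seen.

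Of all probe sets 5699 (12.7%) were called. Of the 18193 genes, 2870 (15.8%) were called, 1378 (7.57%) higher and 1492 (8.2%) lower. The 3 treated and the 3 control values did not overlap in 46.1% of all genes, and in 2845 of the genes called. Falls were larger than rises. The median fold was 1.766 among the genes called higher and 2.154 among those called lower, and 15 genes rose more than 8-fold against 127 that fell by that much. The median log2 fold change of all genes was 0.027, with 5th and 95th percentiles of −0.952 and 0.735. The medians of the gene lists below are to be read beside these, and their counts beside the 7.57% and the 8.2%.

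By list medians, control replicate 1 differed most from the other controls in genes of dividing and of blood cells. Among 28 genes of cell division, 23 were highest of all 6 arrays in control replicate 1. Their median, taken relative to the mean of the 3 controls, was 0.80 in that array, −0.369 and −0.514 in the other controls, and 0.027, −0.322 and 0.187 in treated replicates 1 to 3. Of 13 neutrophil and marrow granule genes 12 were highest there, with list medians of 1.384, −0.030 and −1.319 in the 3 controls and −0.137, −0.940 and −0.302 in the treated nerves. Of 11 erythroid genes 9 were highest there, with list medians of 1.289, −0.495 and −0.794 in the controls and −0.157, −1.252 and −0.705 in the treated nerves. Hba-a1, an alpha globin, was at 3.89, 3.89 and 3.85 in the controls and between 3.76 and 4.04 in the treated nerves. These values lie below the lower quartiles of the arrays, so this probe set cannot show whether globin RNA was present or differed. Control replicate 1 was also the highest of the 6 arrays in 1035 of the 1492 genes called lower. It was highest in 16 of 23 spiral ganglion, 19 of 22 synaptic vesicle and 10 of 13 node of Ranvier genes. The list medians there were smaller, at 0.177, 0.197 and 0.147. It was highest in 17 of 23 respiratory chain genes too, at a list median of 0.05. Of 14 structural myelin genes 1 was highest there. List counts that moved by 1.5 times or more without this array are given below with and without it.

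**Figure D1:**
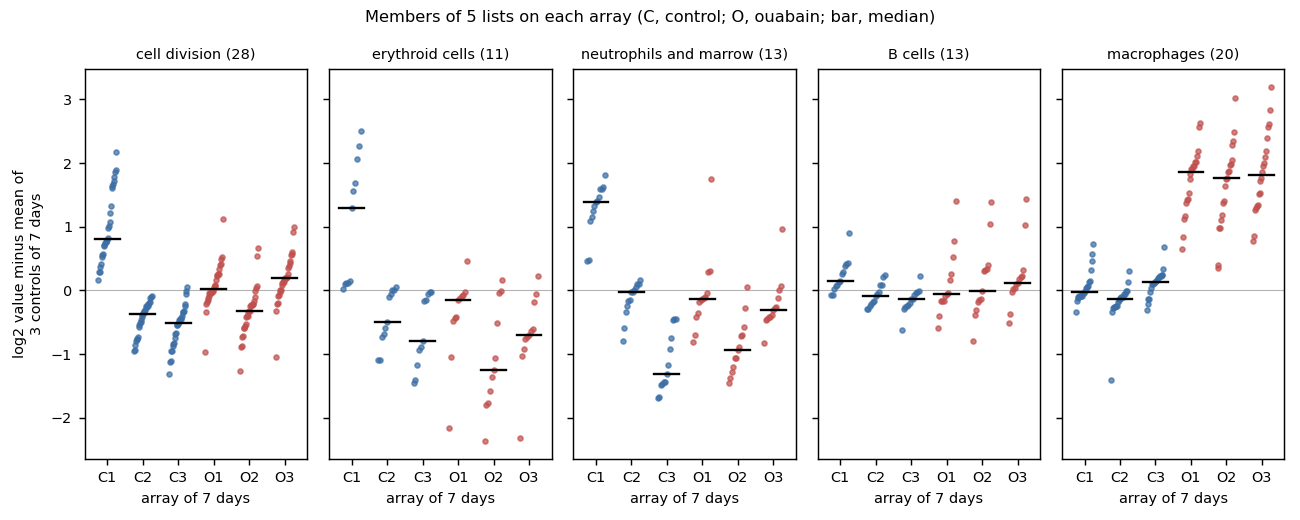
Values of single genes (points) and their median (bar) on each of the 6 arrays, as log2 value minus the mean of the 3 controls of 7 days, for 5 gene lists with the number of measured genes in brackets. Cell division, erythroid and neutrophil genes stand highest in control replicate 1 (medians 0.80, 1.289 and 1.384), and among these 5 lists the medians of all 3 treated arrays lie above those of all 3 controls only for macrophages.

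Several of the largest rises were in genes close to the lower end of the array in control nerves. Clca3a2, a secreted regulator of calcium-activated chloride currents, stood at 3.42, 3.33 and 3.34 in control replicates 1 to 3 and at 9.11, 9.07 and 9.83 in treated replicates 1 to 3. Its log2 fold change was 5.97 (SE 0.17, limma adjusted p = 3.13e-09), the largest of all genes, from a level below the lower quartile of the control arrays. Its near-identical relative Clca3a1 had 4.39, 3.59 and 3.78 against 5.88, 5.82 and 6.31, a log2 fold change of 2.09 (SE 0.18). The groups did not overlap for either gene, which the choice of Clca3a2 required. Shared sequence may let the probes of either gene bind transcripts of the other. Gcg, the precursor of glucagon and of glucagon-like peptides, had 3.92, 4.07 and 4.29 in the controls and 9.67, 9.17 and 10.05 in the treated nerves (log2 fold change 5.54, SE 0.18, limma adjusted p = 7.99e-09). Ucn2, a peptide of the corticotropin-releasing factor family, had 4.26, 4.60 and 3.85 against 8.17, 7.85 and 8.73. Both secreted peptides rose in each treated array from values near or below the lower quartile.

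Other large rises began from values above the lower quartile. Duoxa1, a maturation factor of a hydrogen peroxide-producing oxidase, had 4.69, 5.12 and 4.61 against 9.64, 9.74 and 10.41 (log2 fold change 5.13, SE 0.21). Tmem158, a membrane protein induced by Ras signalling, had 7.92, 7.64 and 8.01 against 12.83, 12.54 and 12.98 (4.93, SE 0.14). Atf3, a stress-induced transcription factor of injured neurons and glia, had 7.22, 7.40 and 7.62 against 11.86, 11.86 and 11.96 (4.48, SE 0.12). In Atf3 the 3 treated arrays were nearly level with each other and more than 4 units above every control. Entpd2, a surface enzyme of glia that breaks down extracellular ATP, had 6.90, 6.51 and 6.89 against 10.34, 10.48 and 10.80. Cdh19, a cadherin of the Schwann cell lineage, had 8.87, 8.78 and 8.87 against 12.15, 12.03 and 12.33 (3.33, SE 0.09, limma adjusted p = 3.06e-09). Klk8, a secreted serine protease known as neuropsin, had 5.77, 5.98 and 6.10 against 9.52, 9.68 and 9.50. The remaining genes of the 15 with the largest rise were Btc, Gap43, Cela1, Ecm1, Gadd45a and Itih3, with log2 fold changes from 3.04 to 5.15. Gadd45a, a stress gene that slows the cell cycle, was the most even of these, with 8.86, 8.82 and 8.72 against 11.96, 11.84 and 11.76.

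Genes that rose most were also looked at in their promoters, since Atf3 and Jun, both members of the AP-1 family of transcription factors, were among the raised genes. Jun, chosen after its values were seen, stood at 10.66, 10.61 and 10.72 in the controls and at 11.86, 11.74 and 12.12 in the treated nerves (log2 fold change 1.25, SE 0.14, limma adjusted p = 4.47e-05). Promoters were taken from RefSeq on GRCm38.p6, from 250 bases before to 50 bases after the start of the gene, and 11 of the 15 genes with the largest rise were listed there. The AP-1 motif, TGANTCA on either strand with N any base, was found in 3 of them. It read TGAGTCA in Entpd2 and Ecm1 and TGATTCA in Clca3a2. The motif was present in 6.33% of 14452 promoters of tested genes, in 7.43% of 1063 promoters of genes called higher and in 4.45% of 1168 promoters of genes called lower. These shares are a description of letters, with motifs chosen when the results were known, and were not tested. The promoters of Entpd2 and Ecm1, genes with a match, are shown 5′ to 3′ with the motif in capitals, at chr2:25395624-25395923 on the plus strand for Entpd2 and at chr3:95739520-95739819 on the minus strand for Ecm1.
Entpd2: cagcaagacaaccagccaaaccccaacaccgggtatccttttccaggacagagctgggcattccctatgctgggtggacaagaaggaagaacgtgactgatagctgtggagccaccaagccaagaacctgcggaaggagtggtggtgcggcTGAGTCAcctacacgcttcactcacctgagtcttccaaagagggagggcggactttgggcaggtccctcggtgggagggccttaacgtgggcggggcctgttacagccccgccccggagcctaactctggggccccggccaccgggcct
Ecm1: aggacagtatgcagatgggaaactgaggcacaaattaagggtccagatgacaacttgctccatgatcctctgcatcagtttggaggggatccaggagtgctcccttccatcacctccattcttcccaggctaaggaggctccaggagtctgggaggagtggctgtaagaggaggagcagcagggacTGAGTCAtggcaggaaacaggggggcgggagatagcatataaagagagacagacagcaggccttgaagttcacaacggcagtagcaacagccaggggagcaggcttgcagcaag
Among the 15 largest falls, of which Hecw1 was not listed, the motif was found at listed start 2 of Syt2, a synaptotagmin of vesicle release. Start 1 of Syt2 had no match, and the shares given here use only start 1 of each gene. The match began 99 bases before the start in Entpd2 and 64 bases before it in Ecm1. The motif of EGR factors, GCGNGGGCG on either strand, was found in 8.9% of the tested promoters, 10.3% of those of genes called higher and 13.1% of those of genes called lower, and the cyclic AMP response motif TGACGTCA in 2.68%, 1.69% and 3.08%.

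**Figure D2:**
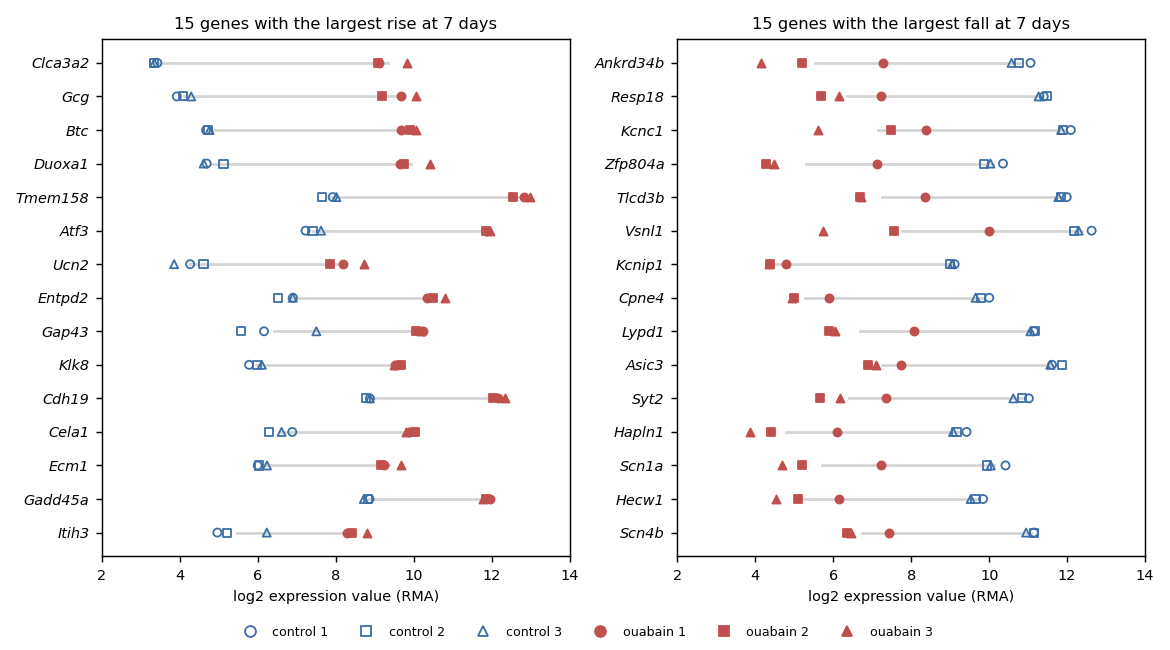
Log2 RMA values on each of the 6 arrays of 7 days for the 15 genes with the largest rise (left) and the 15 with the largest fall (right), with a grey line between the group means. These genes were chosen to have no overlap between the groups, and among the genes that fell treated replicate 1 (filled circle) tends to lie closest to the controls, as in Ankrd34b with 7.27 against 5.19 and 4.16.

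Lypd1 and Syt2, members of the spiral ganglion list, and several ion channel genes were among the 15 largest falls, and treated nerves were uneven in them. Fewer neurons and less RNA per neuron cannot be told apart in these pools. Ankrd34b, a cytoplasmic protein of neurons, had 11.06, 10.76 and 10.57 in the controls and 7.27, 5.19 and 4.16 in the treated nerves (log2 fold change −5.26, SE 0.65, limma adjusted p = 9.22e-05). Kcnc1, the fast potassium channel Kv3.1, had 12.09, 11.89 and 11.84 against 8.38, 7.48 and 5.60 (−4.79, SE 0.53). Asic3, an acid-sensing channel of sensory neurons, had 11.61, 11.87 and 11.57 against 7.73, 6.89 and 7.09 (−4.45, SE 0.25). These genes were among those chosen to have no overlap between the groups, and treated replicate 1 was the highest treated array in each of them. Vsnl1, a neuronal calcium sensor, had 12.63, 12.19 and 12.29 against 9.99, 7.55 and 5.74, so that the treated arrays spread over more than 4 units (−4.61, SE 0.90, limma adjusted p = 2.44e-03). The other genes among the 15 largest falls were Resp18, Zfp804a, Tlcd3b, Kcnip1, Cpne4, Lypd1, Syt2, Hapln1, Scn1a, Hecw1 and Scn4b, with log2 fold changes from −5.02 to −4.34.

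Of 23 measured genes of spiral ganglion neurons 19 fell, none rose, and 4 were not called. The list medians relative to the controls were −2.014, −3.346 and −3.642 in treated replicates 1 to 3, and 16 of the 23 genes were highest in replicate 1 among the treated arrays. Without treated replicate 1 the same number of genes was lower and the median log2 fold change moved from −2.948 to −3.570. Among all 1492 genes called lower, treated replicate 1 was the highest treated array in 735. Calb2, the calcium buffer calretinin, differed from this pattern, with 13.20, 13.41 and 13.09 against 9.42, 9.57 and 9.12 (log2 fold change −3.86, SE 0.25). Calb1, the related buffer calbindin, was uneven in the controls too, with 12.10, 10.13 and 11.78 against 9.75, 6.91 and 6.27 (−3.69, SE 0.86, limma adjusted p = 7.27e-03).

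Genes of excitability and of transmitter release fell with the neuronal genes. Counts are read beside the 8.2% of all genes called lower and the 7.57% called higher. Of 22 genes of synaptic vesicle release 18 fell and none rose, with a median of −2.653. Sv2b, a vesicle glycoprotein, had 10.98, 10.54 and 10.49 against 7.84, 6.32 and 5.33, and Vamp1, the vesicle partner of the fusion complex, had 11.59, 11.52 and 11.26 against 8.22, 7.01 and 6.64. Of 18 voltage-gated channel genes 10 fell and 1 rose (none rose without control replicate 2 or without treated replicate 1). Scn1a, Scn4b and Scn8a, sodium channel subunits of fast-firing axons, had log2 fold changes of −4.43, −4.34 and −4.23. Of 13 genes of the node of Ranvier and its borders 7 fell and 1 rose, and Kcnab2, a subunit of axonal potassium channels, had 10.14, 10.00 and 9.74 against 6.59, 5.40 and 5.48. Of 15 transmitter receptor genes 5 fell and 1 rose, with a list median of only −0.101. Chrna7, the alpha-7 nicotinic receptor, had a log2 fold change of −2.11 (SE 0.16), and the AMPA receptor genes Gria2 and Gria3 had −1.88 (SE 0.34) and −1.63 (SE 0.13). The genes of the sodium potassium pump, the target of ouabain, showed small changes. Of 9 measured members 2 fell, Atp1b1 (−0.80, SE 0.15) and Fxyd6 (−0.80, SE 0.10), and 1 rose, the regulatory subunit Fxyd1 (0.83, SE 0.10), or 2 without control replicate 1 or without control replicate 3.

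Markers of spared neurons gave a mixed picture. Of 7 measured genes of type II and autonomic neurons 2 rose and 1 fell, against 7.57% and 8.2% of all genes. Ngfr, the low-affinity neurotrophin receptor, is also a gene of repair Schwann cells and had 9.57, 8.92 and 8.91 against 11.26, 11.26 and 11.41. Prph, peripherin, an intermediate filament that marks type II neurons, had 6.71, 7.17 and 6.76 against 7.70, 7.79 and 8.30 (log2 fold change 1.05, SE 0.24, limma adjusted p = 0.00743), with 1 of its 4 probe sets called. Ret, the signalling receptor of the glial cell line-derived neurotrophic factor (GDNF) family, had 7.42, 7.09 and 7.52 against 6.40, 6.01 and 5.71 (log2 fold change −1.31, SE 0.28, limma adjusted p = 4.09e-03). Tac1, a precursor of substance P chosen after its values were seen, had 11.39, 7.14 and 7.86 against 8.18, 5.37 and 5.15 and was not called (adjusted p = 0.197), with 1 high control.

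Neuregulin ligands fell while ErbB receptors rose. Among 22 ErbB and fibroblast growth factor genes 5 rose and 5 fell, against 7.57% and 8.2% of all genes. Nrg1, the neuregulin by which axons control Schwann cells, had 9.12, 8.44 and 8.77 in the controls and 6.04, 5.02 and 5.38 in the treated nerves (log2 fold change −3.30, SE 0.39, limma adjusted p = 6.55e-05). Nrg3, a related ligand, had 7.36, 6.92 and 7.19 against 4.04, 3.72 and 3.73 (−3.33, SE 0.32). The treated values of Nrg3 lay below the lower quartile of the arrays. Erbb3, the neuregulin receptor of Schwann cells, rose by 1.22 on the log2 scale, with its partner Erbb2 at 0.88 and Egfr at 0.96. Btc, betacellulin, a ligand of Egfr, had 4.67, 4.73 and 4.76 against 9.67, 9.90 and 10.04. Fgf10 and Fgf12 fell, with log2 fold changes of −3.01 (SE 0.20) and −3.83 (SE 0.72). Of the 7 probe sets of Egfr 3 were called, and 1 of 2 for Erbb3 and for Nrg3. The 3 receptors were named after their values were seen.

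Neurotrophic ligands and receptors rose more often than they fell. Of 19 measured genes 10 (7 without control replicate 1) rose and 1, Ret, fell, with a median of 0.595. Gdnf, a survival factor for neurons made by denervated Schwann cells, had 5.89, 6.99 and 6.46 against 8.76, 9.38 and 9.62 (log2 fold change 2.81, SE 0.25). Gfra2, a co-receptor for this family, had 6.45, 6.90 and 7.41 against 9.95, 9.27 and 10.35, and 2 of its 5 probe sets were called higher. Bdnf, brain-derived neurotrophic factor, had 7.00, 6.98 and 6.76 against 7.32, 8.02 and 8.05 (0.88, SE 0.29, limma adjusted p = 0.0431) and lost its call when any single array other than treated replicate 1 was left out (limma adjusted p from 0.0839 to 0.129). Bdnf was chosen after its values were seen. Gdnf, and Gfra2 by its brightest probe set, were higher in every treated nerve than in any control, while the receptor Ret was lower. Such separation held for 2845 of the 2870 genes called.

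Most structural myelin genes fell in treated nerves. Of 14 measured genes 10 fell, none rose, and the median log2 fold change was −1.084. Drp2, a protein that ties myelin to the Schwann cell surface, had 10.34, 10.36 and 10.34 in the controls and 8.11, 7.89 and 8.14 in the treated nerves (−2.30, SE 0.13, limma adjusted p = 3.80e-07). Fa2h, which hydroxylates the fatty acids of myelin lipids, had 10.20, 10.40 and 10.33 against 8.88, 8.80 and 8.70 (−1.51, SE 0.10). Cldn19, a tight junction protein of Schwann cells, had 6.60, 6.78 and 6.65 against 5.46, 5.24 and 5.33. Mbp, myelin basic protein, was chosen after its values were seen and had 13.80, 13.79 and 13.89 against 13.85, 13.71 and 13.62 (−0.10, SE 0.08, adjusted p = 0.426). Values of Mbp overlapped between the groups, whereas those of the others named here did not. The others were named as called genes, and 2845 of the 2870 genes called had no overlap.

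Cholesterol synthesis genes, which supply myelin membrane, were lower as a list. Of 17 measured genes 8 fell (11 without control replicate 1) and none rose, and 14 of 17 did not overlap between the groups, against 46.1% of all genes. Idi1, an isoprenoid isomerase of the pathway, had 10.74, 10.99 and 10.98 against 9.72, 9.50 and 9.88 (log2 fold change −1.20, SE 0.13). Hmgcs1, which makes the precursor of mevalonate, had 12.79, 12.79 and 12.83 against 11.89, 11.74 and 11.93 (−0.95, SE 0.10). The median of the list was −0.582, so most members lay near the fold threshold. Fdps and Cyp51, later enzymes of the pathway, had −1.01 (SE 0.17) and −0.98 (SE 0.15), and 1 of the 2 probe sets of Fdps was called.

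All 23 measured respiratory chain genes were lower in each treated nerve than in any control, against 46.1% of all genes without overlap in either direction. Of these 10 passed the fold threshold, 9 without control replicate 1, and the median log2 fold change was −0.563. Ndufs1, a subunit of complex I, had 11.99, 11.91 and 11.76 against 10.76, 10.76 and 10.72 (−1.14, SE 0.09, limma adjusted p = 2.59e-06). Cyc1, cytochrome c1 of complex III, had 12.42, 12.40 and 12.23 against 11.39, 11.52 and 11.40 (−0.91, SE 0.08). The smallest difference was in Cox4i1, a subunit of complex IV chosen after its values were seen, with 13.50, 13.46 and 13.48 against 13.14, 13.19 and 13.20. Unlike the neuronal genes, the list was even over the treated arrays, with medians of −0.573, −0.571 and −0.543 in replicates 1 to 3.

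**Figure D3:**
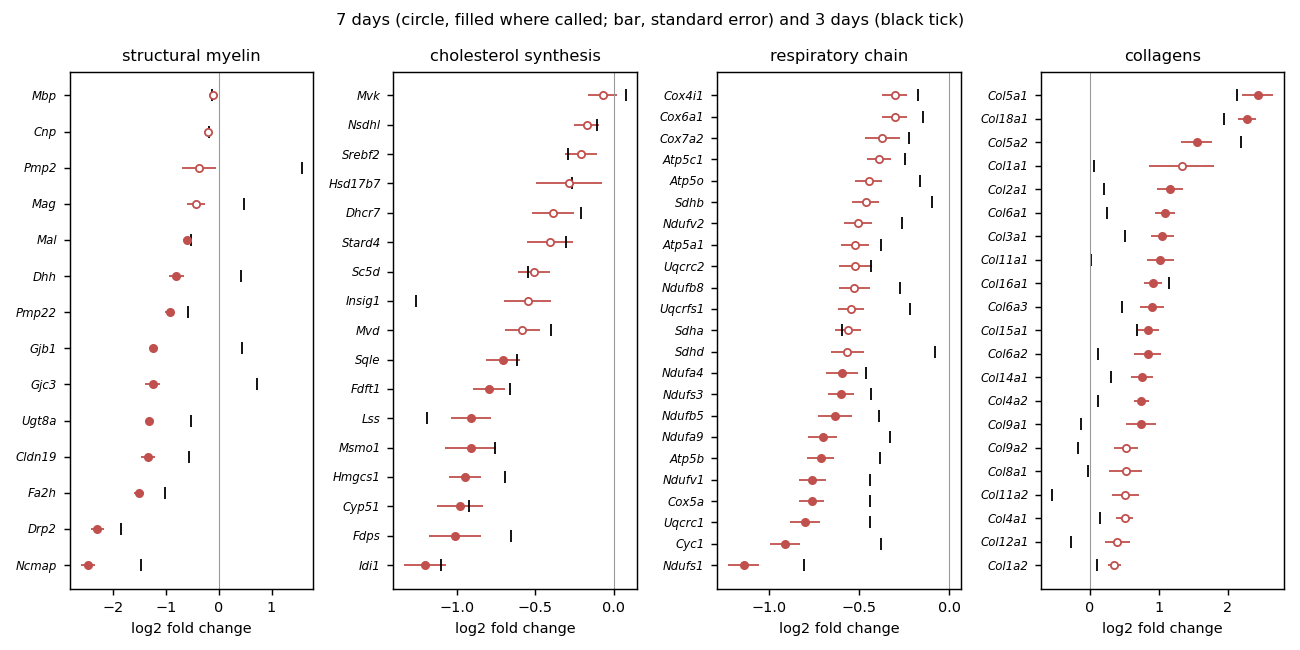
Log2 fold change of ouabain-treated against control nerves for the members of 4 lists, at 7 days (circle, filled where called, with its standard error) and at 3 days (black tick). At 7 days all respiratory chain genes lie below 0 (from Cox4i1 at −0.30 to Ndufs1 at −1.14), no myelin or cholesterol gene is called higher, and 14 of 21 collagen genes are called higher.

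Genes of repair and progenitor states rose in the treated nerve. Of 22 genes of repair Schwann cells 13 rose and 2 fell, with a median of 1.212. Of 21 genes of neural crest and progenitor cells 17 rose (14 without control replicate 1) and none fell, with a median of 0.852. Foxd3, an early neural crest factor, had 6.67, 6.82 and 6.47 against 8.97, 8.82 and 9.35 (log2 fold change 2.39, SE 0.15). Tfap2a, another neural crest factor, had 6.05, 6.28 and 6.59 against 9.03, 8.70 and 9.30, with 2 of 3 probe sets called higher. Ednrb, the endothelin receptor of crest-derived cells, had 9.67, 9.67 and 10.02 against 11.48, 11.31 and 11.63. All 3 rose without overlap between the groups, which were also apart in 2845 of the 2870 genes called. Nes, Vim and Sox2, proteins of progenitor cells, had log2 fold changes of 1.62 (SE 0.12), 1.36 (SE 0.10) and 1.21 (SE 0.20). Among 15 regulators of myelin genes 5 rose and 1 fell, against 7.57% and 8.2% of all genes. Zeb2, a repressor of inhibitors of myelination, had 9.78, 9.86 and 9.29 against 11.70, 11.55 and 11.39, while Egr2, the master factor of myelination, had 11.54, 11.48 and 11.50 against 10.08, 9.28 and 9.93. Of its relatives, Egr1 rose by 1.26 (SE 0.21) and Egr3 by 1.26 (SE 0.18) on the log2 scale. The paralogs differed in direction.

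Lists of developmental signals and of histone deacetylases were read beside the 7.57% of all genes called higher and the 8.2% called lower. Of 13 hedgehog genes the ligands Shh and Dhh fell (−1.16, SE 0.21, and −0.80, SE 0.14), and the target Gli1 rose by 0.59, close to the threshold and not called without control replicate 2 (0.47) or treated replicate 2 (0.56). Of 22 Wnt genes 3 rose (2 without control replicate 3) and 1 fell, among them the secreted inhibitor Sfrp4 with 10.99, 10.45 and 11.31 against 12.32, 11.83 and 12.22. Of 21 genes of transforming growth factor beta (TGFb) and bone morphogenetic protein signals 4 rose and none fell, 2 without control replicate 1. Tgfb1, the main ligand made by macrophages and glia, had 5.93, 5.70 and 5.75 against 6.99, 6.66 and 7.14 (1.14, SE 0.19). Among 16 histone deacetylase genes 1 was called (2 without control replicate 2 or without treated replicate 1 or 2), Sirt3, a mitochondrial member, which fell by 0.83 (SE 0.10). Hdac1 had a log2 fold change of 0.43 (SE 0.07, adjusted p = 9.32e-04), under the fold threshold, and Hdac2 had −0.14 (SE 0.08, adjusted p = 0.247).

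Genes of macrophages and of innate immunity were higher in treated nerves. Of 20 macrophage genes 19 rose, and all 20 without control replicate 1, with list medians of 1.866, 1.765 and 1.816 in the 3 treated arrays. Ms4a7, a membrane protein of tissue macrophages, had 7.23, 7.17 and 7.42 against 9.91, 10.30 and 10.47 (log2 fold change 2.95, SE 0.16). Of 21 complement and acute phase genes 13 rose and none fell. C3ar1, the receptor for a complement fragment, had 5.72, 6.03 and 5.84 against 8.23, 8.29 and 8.85 (2.59, SE 0.15). Osmr, the oncostatin M receptor, had 8.02, 8.48 and 8.59 against 10.84, 10.85 and 10.96 (2.52, SE 0.16). Of 18 lysosome genes 6 rose and none fell, with the antigen-processing protease Ctss at 10.78, 10.84 and 11.17 against 12.65, 12.54 and 12.72. Of 15 antigen presentation genes 5 rose, and 12 without control replicate 3. In H2-Aa, a class II chain chosen after its values were seen, control replicate 3 was at 9.28 against 8.42 and 7.97 in the other controls and 9.11, 9.52 and 9.15 in the treated nerves.

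Chemokines were less even between treated nerves than macrophage genes were. Of 24 chemokine genes 13 rose (10 without treated replicate 1) and none fell. Ccl8, which attracts monocytes, had 5.59, 5.48 and 6.41 against 8.35, 9.17 and 7.49 (log2 fold change 2.51, SE 0.41). Cxcl5, which attracts neutrophils, had 3.26, 3.92 and 4.29 against 6.39, 5.01 and 4.99 (1.64, SE 0.35). Cxcl10, an interferon-induced ligand of T cells, had 6.56, 6.35 and 6.92 against 9.99, 7.31 and 6.77 and was not called (adjusted p = 0.165). Treated replicate 1 was far above the others in Cxcl10, which was chosen after its values were seen. Of 17 interferon response genes 2 rose, against 7.57% of all genes. They were Gbp2 (0.80, SE 0.19) and Irf1 (0.73, SE 0.16, and not called without control replicate 1).

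Other blood cell lists, apart from that of neutrophil genes, held called genes at about the share of all genes, 15.8%. None of 13 neutrophil genes was called by limma or by the methods' test, none had an unadjusted limma p under 0.05, 2 were called lower without control replicate 3, and groups overlapped in each of them. Mpo, a granule peroxidase, had 8.73, 7.08 and 6.15 against 6.51, 6.26 and 6.93, with control replicate 1 the highest. The median log2 fold change of the list was −0.503, and 0.173 without control replicate 1. Of 11 erythroid genes 2 fell, Tfrc and Sptb, and the median moved from −0.795 to 0.046 without control replicate 1. Tfrc, the transferrin receptor, which many cells that take up iron also express, had 12.24, 12.17 and 11.95 against 9.96, 9.75 and 9.80 (−2.28, SE 0.12, limma adjusted p = 2.30e-07). Sptb, the beta spectrin of red cells that other tissues also make, had 9.32, 9.16 and 9.16 against 8.17, 7.96 and 8.18. In both genes the treated values lay below all controls, as in 1488 of the 1492 genes called lower. In both, control replicate 1 was within 0.3 of the other controls. Of 13 B cell genes 2 rose, Blnk (1.41, SE 0.14) and Cd22 (0.95, SE 0.15), and of 13 T and natural killer cell genes 2 rose, Gzmb (1.22, SE 0.15) and Cd28 (0.96, SE 0.16). Cd79a, a defining B cell gene named after its values were seen, had a log2 fold change of −0.07.

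Cell division genes gave no call in the upward direction at 7 days. Of 28 measured genes 1 fell and 27 were not called, with a median of −0.041. Ccne2, cyclin E2, was the gene called, with 7.25, 6.61 and 7.01 against 5.996, 5.70 and 5.92 (log2 fold change −1.09, SE 0.16). Without control replicate 1 the median was 0.502 and 5 genes were called higher, Top2a, Ccnb2, Ccna2, Cenpa and Prc1, with log2 fold changes from 0.75 to 1.41. Those 5 were named after their values were seen. Top2a, a topoisomerase of dividing cells, had 8.37, 5.91 and 5.82 against 7.11, 6.49 and 7.27, so that control replicate 1 was above every treated nerve and the other controls were below. Of 15 cyclin D and cell cycle inhibitor genes 4 rose and 1 fell (none fell without control replicate 1), among them Ccnd1, cyclin D1, with 8.94, 9.11 and 9.12 against 10.57, 10.51 and 10.62 (1.51, SE 0.16). Ccnd1 was even in the controls.

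Matrix genes were raised in most families. Of 21 collagen genes 14 rose and none fell, and without control replicate 1 the number was again 14. Col18a1, a basement membrane collagen, had 7.61, 7.75 and 7.62 against 9.73, 9.91 and 10.15 (log2 fold change 2.27, SE 0.13). Col5a1, a fibrillar collagen, had 7.59, 7.54 and 7.35 against 9.74, 9.61 and 10.43 (2.43, SE 0.22), and 2 of its 3 probe sets were called. Col2a1, the collagen of cartilage and of the tectorial membrane, had 9.57, 9.96 and 9.71 against 10.75, 10.87 and 11.11 (1.16, SE 0.19). The groups did not overlap in 18 of the 21 collagens, against 46.1% of all genes. Col1a1, chosen after its values were seen, had 9.94, 8.44 and 8.82 against 10.58, 9.87 and 10.75 and was not called with all arrays, and was called without control replicate 1 (1.77) or without treated replicate 2 (1.60). Bone genes were also measured in these nerves: of 11 osteoblast and osteocyte genes 1 rose, against 7.57% of all genes. Without control replicate 1 there were 4, and the list median was 0.748 against 0.456 with all arrays. The part of bone tissue in the collagen counts was not tested.

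Enzymes that crosslink or cut the matrix changed beside the collagens. Of 16 matricellular genes 9 rose (7 without control replicate 1) and none fell. Lox, the collagen crosslinking enzyme, had 10.64, 11.49 and 11.34 against 12.18, 12.61 and 12.53 (log2 fold change 1.28, SE 0.21), and Vcan, a large proteoglycan, had 5.82, 5.79 and 5.82 against 7.06, 7.21 and 7.59. Of the 8 probe sets of Vcan 3 were called, and the mean over them was 0.39. Of 19 metalloproteinases and inhibitors 9 rose and 1 fell. Timp1, a secreted inhibitor of these enzymes, had 8.12, 7.26 and 8.13 against 10.28, 10.25 and 10.41 (2.48, SE 0.29). Mmp17, a membrane-bound member, had 6.21, 6.06 and 6.09 against 8.50, 8.43 and 8.46 (2.34, SE 0.13). Mmp12, an elastase of macrophages, had 3.66, 3.24 and 4.41 against 7.03, 5.20 and 5.94 (2.28, SE 0.39). Control values of Mmp12 and Mmp19 lay near the lower quartile of the arrays.

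Lists of vascular and cochlear cell types were read beside the 7.57% of all genes called higher and the 15.8% called in either direction. Of 19 endothelial genes 1, Eng, rose, with 4 called without control replicate 2, 2 without treated replicate 3 and none without any other single array. Of 12 pericyte and smooth muscle genes 4 rose (1 without control replicate 1, Pdgfrb). Pdgfrb, a receptor of pericytes and fibroblasts, had 11.03, 11.16 and 11.30 against 12.10, 11.76 and 12.18 (log2 fold change 0.85, SE 0.12). Of 13 hair cell genes 1 rose, Pcdh15 (0.62, SE 0.17), which was not called without control replicate 1 (0.38) or without treated replicate 2 or 3, and the median of the list was −0.008. Of 14 supporting cell genes 2 rose and 2 fell, and those that fell were Fgf10 and Prox1, with log2 fold changes of −3.01 and −2.05, both of which spiral ganglion neurons express as well. Of 18 genes of central glia 3 rose (5 without control replicate 3), Gpr17, Opalin and Aqp4, with Aqp4, the water channel of astrocytes, at 11.13, 11.45 and 11.75 against 12.46, 12.41 and 12.22. Of 12 skeletal muscle genes 1 fell.

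The pigment cell genes in the lateral wall list varied between control nerves. Pmel, a melanosome protein, had 7.78, 7.68 and 7.38 against 6.49, 6.72 and 6.14 (log2 fold change −1.16, SE 0.20) and was the only called member that fell of the 16, and Pou3f4, a factor of the lateral wall, was the one that rose (0.65), though not without control replicate 1 (0.46). Dct, an enzyme of pigment synthesis, had 10.78, 5.40 and 10.35 in the controls and 7.26, 6.80 and 7.00 in the treated nerves (−1.83, SE 1.38, adjusted p = 0.394). Tyr, tyrosinase, had 6.95, 4.21 and 6.26 against 4.62, 4.16 and 4.23. Without control replicate 2, the low one, 5 members of this list were called lower, among them Dct at −3.55 and Tyr at −2.27. Dct and Tyr were chosen after their values were seen.

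Stress and death genes rose in part. The counts here are read beside the 7.57% of all genes called higher and the 8.2% called lower. Of 18 apoptosis genes 10 rose (8 without control replicate 1) and none fell. Casp4, an inflammatory caspase, had 5.86, 5.98 and 5.87 against 7.80, 7.31 and 7.51 (log2 fold change 1.64, SE 0.15), and Casp12, a caspase linked to the endoplasmic reticulum, had 7.79, 7.95 and 8.23 against 9.46, 9.18 and 9.41. Bcl2, which protects from apoptosis, had 9.91, 9.97 and 10.00 against 10.74, 10.94 and 11.03 (0.95, SE 0.11). Both death and survival genes were thus among those raised. Of 18 genes of oxidative defense 1 rose and 2 fell, about the 15.8% of all genes called in either direction. Without control replicate 1 none rose and 1 fell, as also without treated replicate 2. Of 17 hypoxia and glycolysis genes 2 rose and 2 fell, with 1 rising without control replicate 2 or treated replicate 1 and 3 without control replicate 3 or treated replicate 2. Ndrg1, a hypoxia-induced gene that myelinating Schwann cells also need, had 13.04, 13.19 and 13.02 against 12.21, 12.14 and 12.12 (−0.93, SE 0.07), and Mt3, a metallothionein of nervous tissue, had 10.85, 10.74 and 10.73 against 9.65, 9.33 and 9.10 (−1.41, SE 0.20). Of 18 growth-associated genes 8 rose and 1, Stmn2, fell (2 without control replicate 3). Of 14 osteoclast genes 2 rose, about the 15.8% of all genes called, and 3 without any single array other than treated replicate 3.

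**Figure D4:**
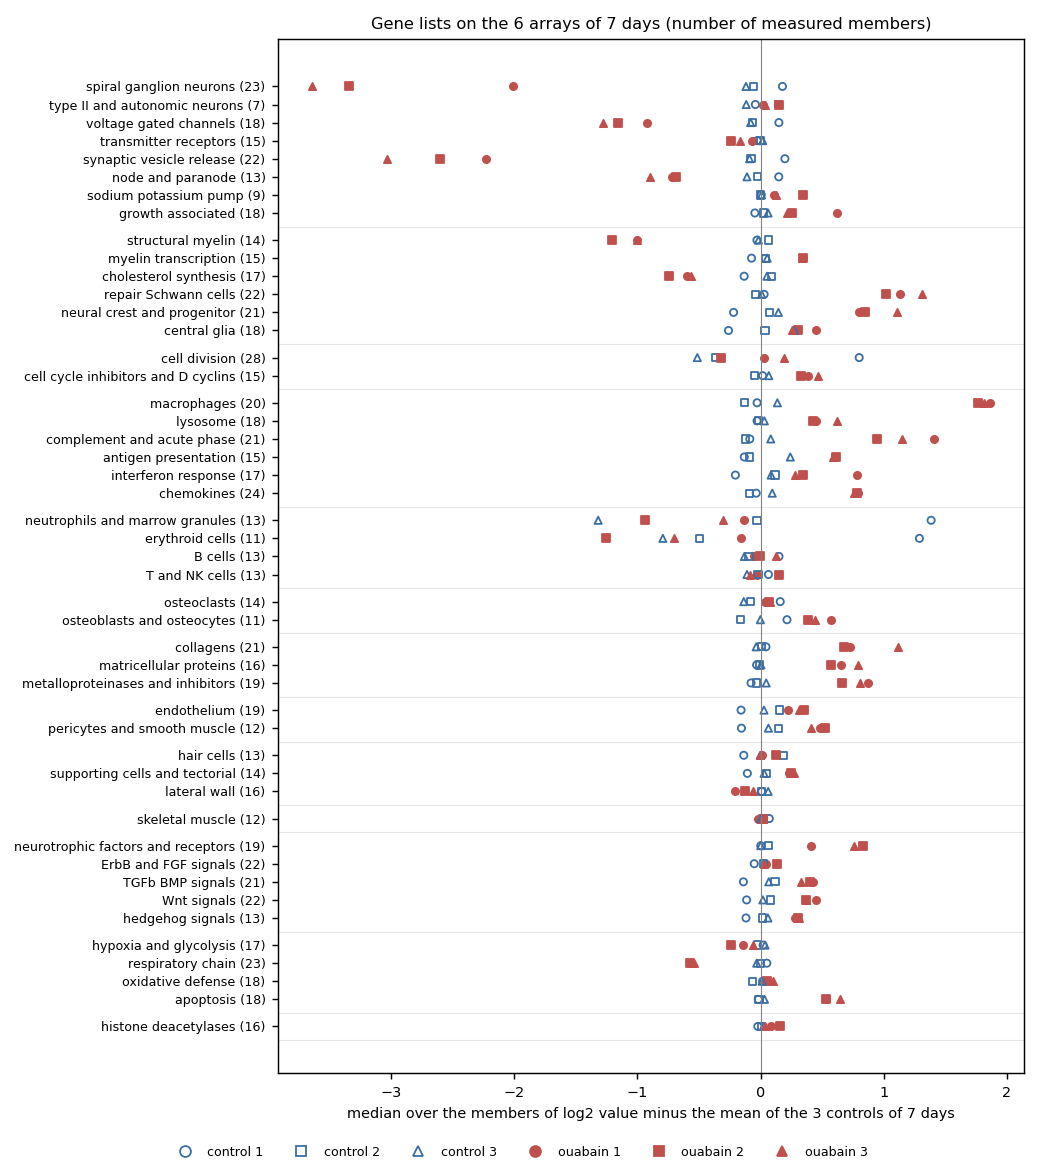
Median of each of the 47 gene lists on the 6 arrays of 7 days, as log2 value minus the mean of the 3 controls, with the number of measured genes in brackets. Among the treated arrays the neuronal list is lowest in replicates 2 and 3 (−3.346 and −3.642), macrophage genes are the highest (1.765 to 1.866), and the neutrophil and erythroid lists spread as widely among controls as between groups.

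The nerves of 7 days were set against those of 3 days to find where the response differed with time. At 3 days 2834 genes (15.6%) were called, 7.51% of all genes higher and 8.06% lower. Of the 1378 genes higher at 7 days 757 were also called higher at 3 days, and of the 1492 genes lower at 7 days 1165 were also called lower at 3 days. The difference between the responses was itself called by limma for 213 genes (1.17%), 45 (0.247%) with a higher and 168 (0.923%) with a lower response at 7 days, and for 370 probe sets (0.822%). Without treated replicate 1 or 2 of 7 days it was called for 239 and 232 probe sets. The controls of the 2 days differed in 3 genes (0.0165%). Each day's response uses the controls of that day.

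Rises that were later or larger at 7 days were few. In Clca3a2 the log2 fold change of 5.97 at 7 days stood against 0.15 at 3 days, a difference of 5.82 (SE 0.24, limma adjusted p = 8.61e-07). Gcg had 5.54 and 2.99, Klk8 3.62 and 1.42, and Entpd2 3.77 and 2.52. Stc2, a secreted glycoprotein of the stress response, had 6.41, 6.71 and 6.76 against 8.23, 8.31 and 8.47 at 7 days and a log2 fold change of −0.07 at 3 days. Fbln7, a fibulin of the extracellular matrix, had 9.25, 9.67 and 9.49 against 10.53, 10.69 and 10.73 and a log2 fold change of −0.05 at 3 days. Fxyd1, the regulator of the sodium potassium pump, had 11.16, 11.23 and 11.25 against 11.87, 12.17 and 12.07 and −0.04 at 3 days. The median of the collagen list was 0.85 at 7 days with 14 genes called and 0.156 at 3 days with 5 called, yet no single collagen passed the test of the difference.

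Most differences ran the other way. The 28 cell division genes had a median of 2.146 and 28 calls upward at 3 days, and the difference between days was called for 4 of them. Hmga2, a chromatin protein of growing cells, had 5.73, 6.04 and 5.61 against 6.01, 6.13 and 5.92 at 7 days, a log2 fold change of 0.23, and 4.95 at 3 days. Cyclin D1 had 1.51 and 3.14, and the chemokines Ccl8 and Cxcl14 had 2.51 and 5.83, and 1.41 and 3.39. The call of the difference for Ccl8 was lost without treated replicate 1. For 5 of the 14 structural myelin genes the response was lower at 7 days than at 3 days, and the list had 10 genes lower at 7 days and 3 lower and 2 higher at 3 days. Dhh, the Schwann cell hedgehog ligand, had −0.80 at 7 days and 0.42 at 3 days, a difference of −1.22 (SE 0.19). Htr2c, a serotonin receptor, differed in the opposite direction. Htr2c was lower in treated nerves at both days, but less so at 7 days (−1.34) than at 3 days (−2.69).

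**Figure D5:**
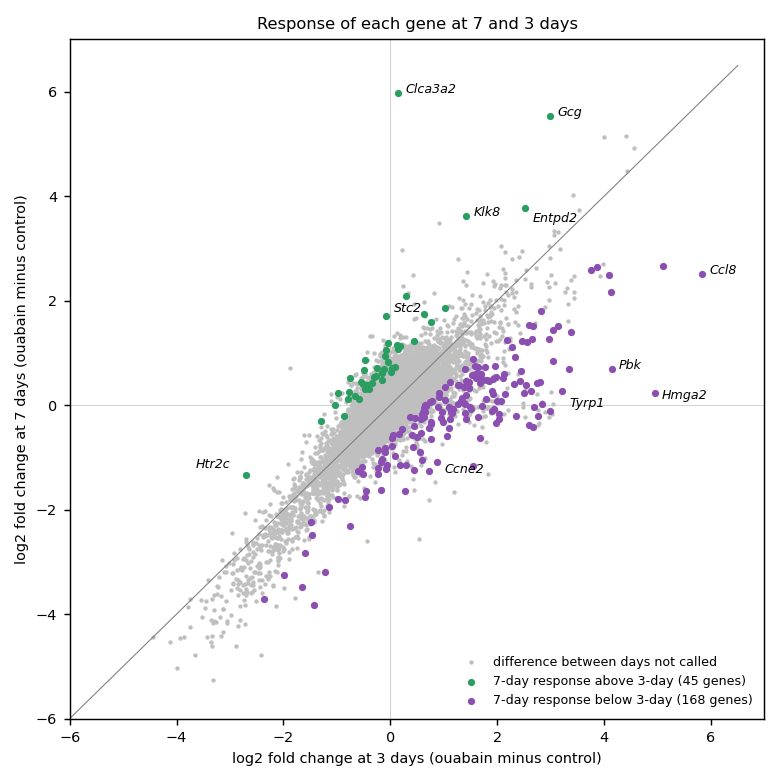
Log2 fold change of ouabain-treated against control nerves at 7 days (vertical) and at 3 days (horizontal) for 18193 genes, with the line of equal response. Green points (45 genes) responded higher at 7 days, with Clca3a2 at 5.97 against 0.15 farthest from the line, and purple points (168 genes) responded lower, with Hmga2 at 0.23 against 4.95.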

How the data were processed

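Total RNA was labelled with biotin and hybridised to 1-colour Affymetrix mouse GeneChip arrays. The authors normalized the arrays with the Affymetrix Expression Console by RMA, with MAS5 as their second method, and no versions are given in the sources used here. The deposited table holds the authors' log2 RMA value of every probe set on every array and was used as it stands. The number of arrays limits the precision. The 64 Affymetrix control probe sets among 45101 were not analysed. Symbols came from the platform's annotation, in which 932 probe sets carry several symbols and 9160 none, and 34741 were updated through Entrez identifiers. Where a gene has several probe sets, the one with the highest mean over the 12 arrays was used.

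A linear model of the 4 groups over 12 arrays, without a block, was run in R 4.3.3 using limma 3.58.1 and its moderated variances, after a test on simulated data. Annotation, counts and figures used Python 3.11.15, pandas 2.3.3 and matplotlib 3.10.9. The methods' unpaired test at p under 0.05 was an alternative, beside a replicate block, other thresholds, filters, normalizations and weights, and each array left out in turn. The 47 gene lists and the comparison were chosen with earlier results of these data known. Genes named were the 15 largest changes each way without overlap between groups, up to 4 called members of each list, or 2 where none was called, the 10 largest differences between days each way, and 16 genes named in the paper. Others are said to be chosen after their values were seen. The promoters of Tmem158, Ucn2, Gap43, Cdh19 and Hecw1 were not analysed here. Some items are not reported here.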

Additional observations from a re-analysis of the deposited data

Results flagged for a closer look

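Genes whose response differed between 7 and 3 days by limma's test of the difference are given here with the 7-day log2 fold change minus the 3-day one, all at 3 arrays per group. The response was higher at 7 days for Clca3a2 (5.82), Gcg (2.55), Klk8 (2.20), Clca3a1 (1.79), Stc2 (1.78), Htr2c (1.36), 1110064A23Rik (1.33), Amy1 (1.26), Entpd2 (1.25), Fbln7 (1.23) and Fxyd1 (0.86). Of these Htr2c was lower in treated nerves at both days, and Amy1 was not called at 7 days. The response was lower at 7 days for the cell division genes Pbk (−3.44), Kif11 (−2.98), Pclaf (−2.97), Cenpf (−2.81), Aspm (−2.72), Dscc1 (−3.10) and Ccne2 (−1.97), all of which were highest among the 6 arrays of 7 days in control replicate 1. It was also lower for Hmga2 (−4.72), Ccl8 (−3.32), Gm16316 (−3.08), Tyrp1 (−2.96), Cxcl14 (−1.98), Ccnd1 (−1.63), Lgals3 (−1.22), Dhh (−1.22), Gadd45b (−1.15), Srxn1 (−1.10) and Ncmap (−1.01). The call of the difference was lost with a replicate block for Ccl8 and Cenpf, and when treated replicate 1 was left out for Ccl8, Cenpf, Pclaf and Amy1. Adjusted p-values by limma ran from 8.61e-07 for Clca3a2 to 0.0439 for Pclaf. Groups of 3 arrays were not tested for a sample that stands apart.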

How the results depend on the processing

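With 3 arrays per group the depth of replication, and for genes near the lower quartile the background of the array, limit what could be called. Of 169 genes named for 7 days, 165 were called, which follows from a naming rule that mostly took called genes with large changes. Their stability therefore does not stand for that of all genes. Of the 169, 103 kept their side of the thresholds under every alternative, 43 left it only under the adjusted form of the methods' test or another fold threshold, and 23 under other settings. Genes higher and lower numbered 1378 and 1492, and probe sets called 5699. At adjusted p the methods' test gave 801 genes higher and 3701 probe sets. Without a fold threshold there were 3121 genes higher, 2629 lower and 11451 probe sets. At a fold above 2 there were 429, 832 and 2266, and 231 probe sets for the difference between days against 370. Leaving out 1 array gave 1126 to 1622 genes higher, 1407 to 1556 lower and 4933 to 6403 probe sets. The difference between days then ranged from 232 (without ouabain-treated replicate 2) to 384 probe sets, with 239 without ouabain-treated replicate 1. The other settings kept these 4 counts within 1.5 times. The median log2 fold change of the erythroid list, −0.795, turned to 0.0463 without control replicate 1 and ranged from −1.242 to 0.0463 over the arrays left out. The replicate numbers are shared between groups, and whether they mark ears of the same animals is not stated. In their deviations, same-numbered arrays correlated at 0.277, 0.155 and 0.019 at 7 days and at 0.334, 0.089 and 0.177 at 3 days. The numbers were not taken as pairs. A replicate block gave 1420 genes higher, 1503 lower, 5758 probe sets, and 281 for the difference between days, and it ended the call of that difference for Ccl8 and Cenpf. Each array of 7 days correlated best with its own number except treated replicate 3, which was closer to control replicate 2 (0.152). The cause of these shifts was not tested.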
